A study of Mus musculus with 9 samples.

Results

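The 42 interferon-stimulated genes described here were chosen by symbol from the 52550 gene IDs of the quantification tables, and all 42 were found. They cover transcription factors, the Isg15 system, Ifit proteins, oligoadenylate synthetases and RNA sensors, antiviral effectors, the Parp9 complex, guanylate binding proteins and immunity-related GTPases. Their RNA was followed by RNA-seq in 3 groups of 3 libraries from mouse cerebral cortex. The mice were C57BL/6N males aged 9 to 12 weeks. In the stroke groups the middle cerebral artery was occluded with a filament for 1 h (MCAO) and the brain was reperfused for 6 h, after which the infarcted cortex of the same side was taken. Both stroke groups had first received a locked nucleic acid antisense oligonucleotide through the lateral ventricles. It targeted the enhancer RNA eRNA_06347 in the knockdown group (replicates 2, 3 and 4) and was a negative control in the control oligo group (replicates 1, 2 and 3). Sham mice (replicates 1, 2 and 3) had a neck incision and no filament, are not described as having received an oligonucleotide, and were taken over from a previous experiment of this laboratory. The comparison of the stroke groups asked whether the knockdown changed the transcriptome after stroke. The comparisons with sham asked what differed from sham after stroke and oligonucleotide together. The level of eRNA_06347 is not analysed here, so the knockdown itself was not checked.

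Interferons are secreted when a cell senses foreign or misplaced nucleic acid. Type I interferons bind the receptor made of Ifnar1 and Ifnar2, and the kinases Jak1 and Tyk2 then start signalling to the complex ISGF3, which holds Stat2 and Irf9. ISGF3 binds the interferon-stimulated response element (ISRE) in promoters, whereas interferon-γ acts through the gamma-activated site (GAS). In the brain, microglia, endothelial cells, astrocytes and neurons can all respond to interferon, and so can leukocytes that enter after injury.

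The promoter letters that ISGF3 is known to read were found in many of these genes, and 6 examples are shown because they carry the ISRE in its variants across the roles. RefSeq promoter windows (GRCm38.p6, 250 bases before to 50 after each start) were available for 32 of the 42 genes. Mx1, Mx2, Usp18, Parp9, Parp14, Dhx58, Zbp1, Rtp4, Iigp1 and Ifi27l2a had no entry. The sequences run 5′ to 3′ on the gene's strand, and capitals mark the ISRE letters, which are GAAA, 2 bases of any kind and GAAA again, or the reverse complement with TTTC on either side.
Isg15, chr4:156200860-156200911, minus strand: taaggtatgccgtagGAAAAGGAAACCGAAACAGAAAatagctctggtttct
Ifit1, chr19:34640770-34640828, plus strand: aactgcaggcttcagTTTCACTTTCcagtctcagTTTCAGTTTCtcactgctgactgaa
Ifit3, chr19:34583358-34583431, plus strand: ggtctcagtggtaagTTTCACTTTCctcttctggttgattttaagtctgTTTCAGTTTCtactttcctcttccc
Rsad2, chr12:26456548-26456587, minus strand: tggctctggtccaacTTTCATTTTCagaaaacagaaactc
Gbp2, chr3:142620589-142620628, plus strand: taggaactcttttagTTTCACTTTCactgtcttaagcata
Irgm1, chr11:48871421-48871465, minus strand: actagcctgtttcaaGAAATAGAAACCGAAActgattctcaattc
Isg15 held 3 overlapping matches, Ifit1 and Ifit3 held 2 separate ones, Irgm1 held 2 overlapping ones, and Rsad2 and Gbp2 held 1 each. The stretch printed for Ifit3 was identical in Ifit3b, its near-identical neighbour.

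The ISRE letters occurred on either strand in 19 of the 32 genes (59.4%), against 3.99% of the 27025 genes with a window. In 16 of the 19 a match lay before the start, and in 3 (Ddx58, Eif2ak2 and Ifih1) only after it. The GAS letters TTCNNNGAA, which are their own reverse complement, occurred in 11 of the 32 genes (34.4%), against 9.55% of all genes, and in 1 member window they overlapped an ISRE match. Of the 19 genes with ISRE letters, 9 rose in control oligo MCAO against sham, and of the 13 without them 7 rose, by the test described further on, in which 52.6% of all genes rose. These are letter matches, and factor binding was not measured.

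All 9 libraries carried the markers of cortex, with the excitatory neuron transporter Slc17a7 at 213 to 497 TPM (a share of the library's transcripts normalized by length). The sham libraries held 2.98 to 3.18 gigabases of aligned sequence and the MCAO libraries 4.92 to 5.52. Transcripts of the mitochondrial genome took 22.6 to 28.9% of TPM in MCAO libraries against 0.277 to 0.577% in sham, and nuclear protein-coding genes 54.7 to 63.9% against 30.6 to 34.2%. With this composition the median log2 change over all genes tested was 0.56 for control oligo minus sham, 0.61 for knockdown minus sham and 0.06 for knockdown minus control oligo. The medians moved to 0.01 in each comparison when libraries were scaled by their median ratio to an average library. Such scaled values are given beside the others. Data set, surgery and the oligonucleotide, which sham mice are not described as having received, cannot be told apart in the comparisons with sham. In cortex homogenate, fewer cells of a type and less RNA per cell cannot be told apart either.

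Within each stroke group 1 library carried most of the interferon-stimulated RNA. The TPM of the 42 genes summed to 144.6, 183.3 and 74.2 in the sham libraries, to 947.7, 248.6 and 277.8 in control oligo replicates 1, 2 and 3, and to 250.6, 234.4 and 1427 in knockdown replicates 2, 3 and 4. Control oligo 1 and knockdown 4 therefore stood apart, while the other 4 stroke libraries lay between 234.4 and 277.8 and above every sham library. After scaling, those 4 libraries summed to 195.1 to 267.3 against 111.5 to 242.8 in sham, and the ranges overlapped.

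Control oligo 1 was the highest of its group in 42 of 42 genes, although it was the highest in only 22.8% of all genes kept. Knockdown 4 was the highest of its group in 42 of 42 genes, against 34.0% of all genes. In the control oligo group the highest library exceeded the next by a median of 2.68-fold over the 42 genes and 1.19-fold over all genes, and in the knockdown group by 5.38-fold and 1.17-fold. The excess was at least 2-fold in 33 genes of the control oligo group (4.75% of all genes) and in 42 of the knockdown group (10.4% of all genes). Among sham libraries the median was 1.32-fold, against 1.10-fold over all genes, and sham 2 was the highest in 32 of 42 genes, against 45.6% of all genes.

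**Figure D1:**
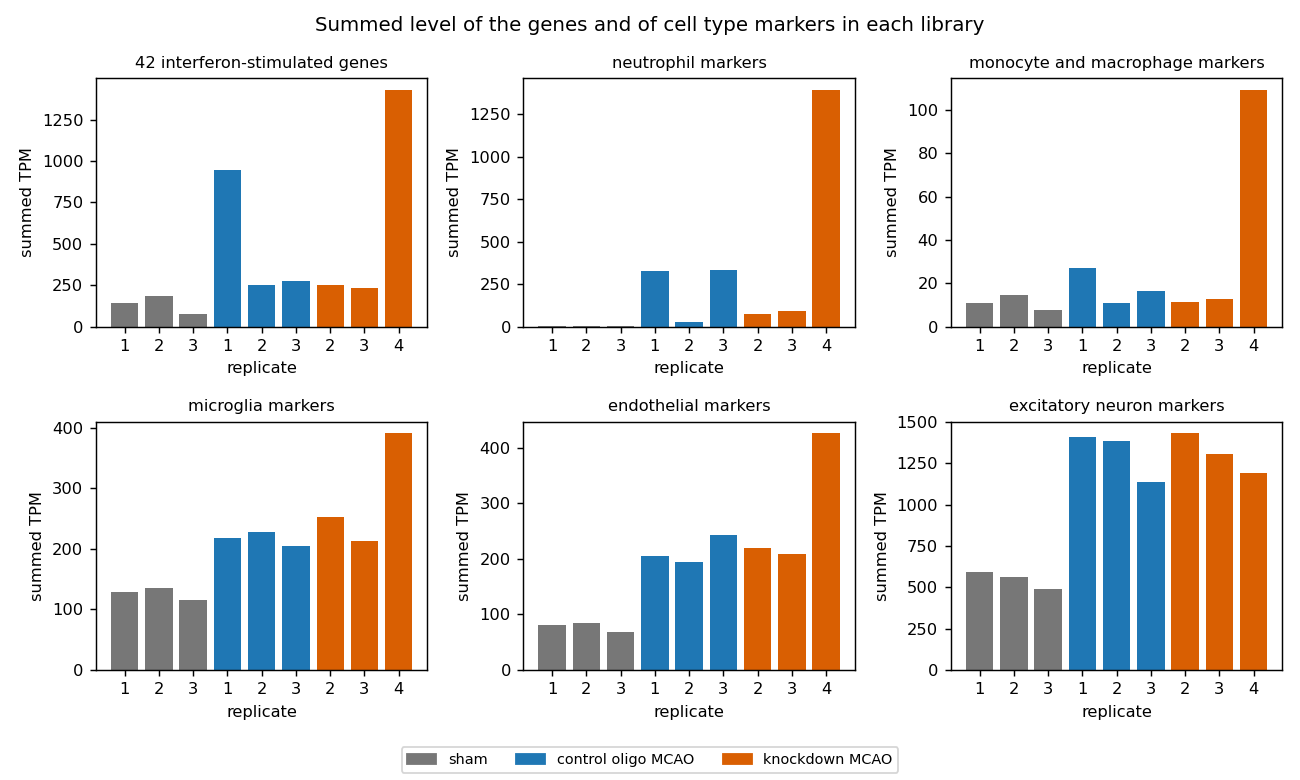
Summed TPM (linear axis from 0) of the 42 interferon-stimulated genes and of 5 marker lists in each library, labelled by replicate number and coloured by group. The genes reached 947.7 in control oligo 1 and 1427 in knockdown 4, and the neutrophil markers summed to about as much in control oligo 3 as in control oligo 1.

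The excess differed widely between genes. In the knockdown group it was largest for Rsad2 (viperin, a radical-SAM enzyme that blocks viral replication), at 31.7-fold, where control oligo libraries had 9.62-fold. The oligoadenylate synthetase-like gene Oasl1 (10.2-fold and 29.2-fold), the dynamin-like GTPase gene Mx1 (11.6-fold and 26.1-fold) and the RNA-binding Ifit1 (10.8-fold and 13.3-fold) were also far out in both groups, in the order control oligo and knockdown. Iigp1, a GTPase of the response to intracellular parasites, stood at 5.50-fold and 20.9-fold. It was smallest for the transcription factor Irf8, at 1.29-fold and 2.08-fold, and the transcription factors Irf1 (1.35-fold and 2.10-fold) and Irf9 (1.46-fold and 2.25-fold) were close to it. Ifit3b and Irgm1 were the genes in which control oligo 1 exceeded its group by more than knockdown 4 did, at 4.95-fold against 4.85-fold and 4.39-fold against 3.31-fold.

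**Figure D2:**
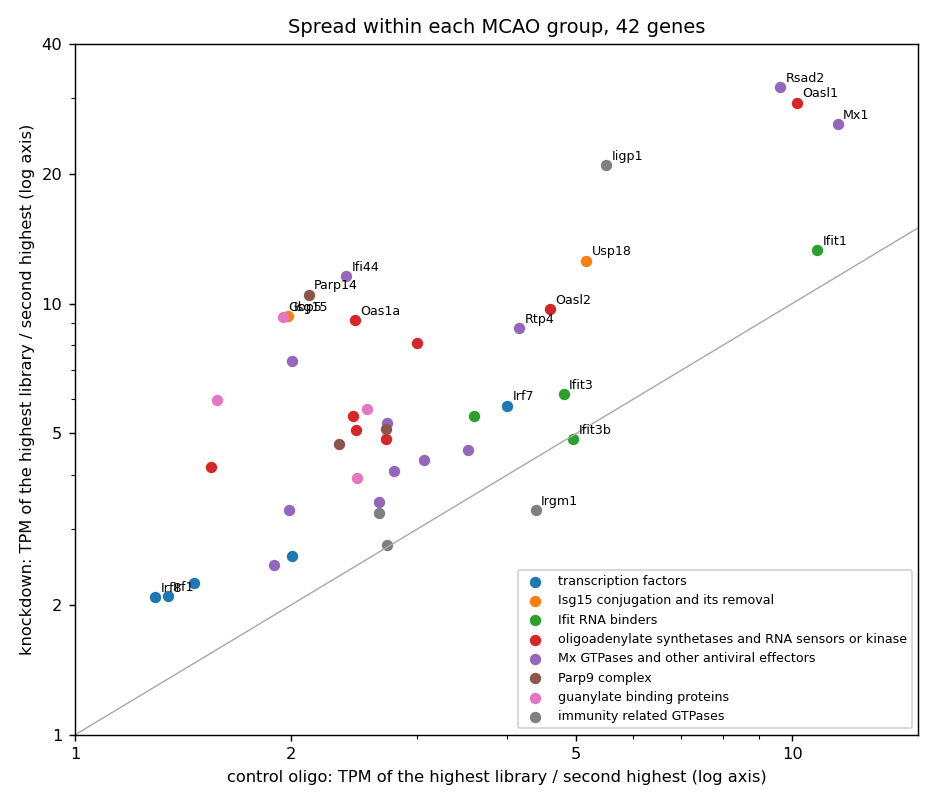
Each point is 1 of the 42 genes, placed by the ratio of its highest to its second-highest TPM among the 3 control oligo libraries (x) and the 3 knockdown libraries (y), on log axes, with a line of equality. Rsad2, Oasl1 and Mx1 lie far out on both axes, and Irf8, Irf1 and Irf9 lie nearest the origin.

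Cell type markers moved in part with the same libraries. The 6 neutrophil markers found summed to 1.53 to 5.35 TPM in sham, to 329.8, 29.8 and 335.6 in control oligo and to 76.2, 91.9 and 1391 in knockdown libraries. In sham, 2 to 4 of them were listed at 0, Retnlg and Camp in all 3 libraries, and in no MCAO library was any at 0. In summed TPM control oligo 3 had about as much neutrophil marker RNA as control oligo 1, with 277.8 and 947.7 TPM of the interferon-stimulated genes. Marker by marker, control oligo 1 was the highest of its group for 3 of the 5 kept and control oligo 3 for 2. The mean of log2(TPM + 1) over the 6 markers was 4.32 in control oligo 1 and 3.89 in control oligo 3. The 6 monocyte and macrophage markers summed to 7.53 to 14.7 in sham, to 27.3, 10.9 and 16.4 in control oligo and to 11.5, 12.7 and 109.1 in knockdown libraries. The sums were highest in the same 2 libraries as those of the interferon-stimulated genes. Of the 5 markers kept, control oligo 1 was the highest of its group for 3 and control oligo 3 for 2, and knockdown 4 for all 5. The 3 markers of meninges and fibroblasts were each highest in control oligo 1 and knockdown 4 within their groups. They summed to 47.1, 27.6 and 34.4 in control oligo and 31.2, 34.5 and 131.2 in knockdown, against 10.4 to 13.01 in sham. The 4 markers of pericytes and smooth muscle had their highest sums in the same 2 libraries. These sums were 70.5, 55.5 and 66.0 in control oligo and 61.1, 61.5 and 111.1 in knockdown, against 50.7 to 58.2 in sham. Marker by marker, control oligo 1 was the highest of its group for 3 and control oligo 3 for 1. In the knockdown group, knockdown 4 was the highest for 3 and knockdown 2 for 1. The 6 microglia markers summed to 114.6 to 135.6 in sham, 217.5, 227.1 and 204.9 in control oligo and 251.9, 212.2 and 390.4 in knockdown libraries. They did not move together. Without overlap, 5 were higher and 1 lower than sham in control oligo, where 56.2% and 14.2% of all genes were. In knockdown 4 were higher and 1 lower, against 57.8% and 14.2%. Knockdown 4 was the highest of its group for 3 microglia markers and knockdown 2 for the other 3. The 6 endothelial markers summed to 67.3 to 83.7 in sham, 204.4, 193.7 and 243.2 in control oligo and 220, 208 and 425.9 in knockdown libraries. Of these, 5 were higher and 1 lower than sham without overlap in control oligo, and 5 higher and 0 lower in knockdown. The shares of all genes are those given for the microglia markers. Control oligo 1 was the highest of its group for 1 of the 6 and knockdown 4 for all 6. Lymphocyte and natural killer cell markers reached at most 0.746 TPM, with all 3 listed at 0 in every sham library. Choroid plexus markers stood at 58.8 in knockdown 3 and at 0.897 to 2.68 elsewhere. The part of these cell types in the levels of the interferon-stimulated genes was not tested.

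Each comparison was tested with limma on log2(TPM + 1) over the 17080 genes kept, which included 41 of the 42 genes, and a gene passed at an adjusted p under 0.05. Mx1 was not kept because only 2 libraries reached 1 TPM. A log2 change is the difference of the group means on this scale, which understates the fold of genes of low TPM.

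In control oligo MCAO against sham, 21 of 41 genes rose and none fell, a share of 51.2% where 52.6% of all genes tested rose and 12.8% fell. Their median log2 change was 1.26, against 0.56 over all genes. After scaling 12 rose and none fell, where 26.1% of all genes rose and 29.2% fell. In 24 of the 41 genes every control oligo library exceeded every sham library, and in none was it the reverse, against 56.2% of all genes higher and 14.2% lower. Without sham 3, the library with the lowest summed level, 13 rose, with a median of 1.03 where all genes had 0.51. The share of all genes that rose in that fit is not given here. Without control oligo 1, 20 rose, of which 19 were among the 21, where 48.5% of all genes rose and 11.5% fell, and the median was 0.75 where all genes had 0.56. After scaling and without control oligo 1, 11 rose and 4 (Ifit2, Dtx3l, Gbp7 and Cmpk2) fell, where 22.6% of all genes rose and 26.4% fell. The 11 genes that rose in each of these 4 fits (with and without scaling, with and without control oligo 1) were Isg15, Ifit3, Ifit3b, Irf8, Mx2, Ifi35, Dhx58, Bst2, Xaf1, Lgals3bp and Ifi27l2a.

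In knockdown MCAO against the same sham libraries, 14 of 41 genes rose and none fell (34.1%, where 52.7% of all genes rose and 12.5% fell), with a median of 1.43 against 0.61 over all genes. After scaling 6 rose and none fell, where 22.7% of all genes rose and 27.1% fell. In 21 genes every knockdown library exceeded every sham library, and in none was it the reverse, against 57.8% of all genes higher and 14.2% lower. Without sham 3, 8 rose, with a median of 1.14 where all genes had 0.56, and the share of all genes is again not given. Without knockdown 4, 17 rose, the 14 among them, where 57.5% of all genes rose and 13.8% fell, and the median was 0.63 where all genes had 0.61. After scaling and without knockdown 4, 8 rose and 6 (Ifit2, Ifih1, Parp14, Dtx3l, Gbp7 and Cmpk2) fell, where 28% of all genes rose and 30.6% fell. Ifit3, Ifit3b, Irf8, Mx2, Xaf1 and Ifi27l2a rose in each of the 4 fits. The sham libraries are the same as in the control oligo comparison.

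In knockdown against control oligo no gene of the 41 passed in either direction, where 0.0117% of all genes (2 genes) did. By limma, none had an unadjusted p under 0.05, the smallest being 0.493 for Cmpk2. In none did the libraries of the groups stay apart, where 3.60% of all genes were higher and 1.80% lower without overlap. The median log2 change was 0.13, against 0.06 over all genes, and 34 of the 41 were positive. The 95% confidence interval reached a median of 1.82 to either side, so that differences of several-fold in either direction were not detectable. For Isg15 the log2 change of -0.16 had an interval of -2.62 to 2.31, for Ifit3 that of 0.02 one of -2.22 to 2.27, and for Rsad2 that of 0.12 one of -3.39 to 3.64. Irf8, the gene with the least spread, had 0.13 with an interval of -0.73 to 0.99. Without knockdown 4 all 41 genes were lower in knockdown, with a median of -0.57, and 1 (Trim30a) had an unadjusted p under 0.05. Without control oligo 1 all 41 were higher, with a median of 0.63. Without both libraries 13 were positive and 28 negative, with a median of -0.11. Leaving out knockdown 2 or 3, which gives knockdown 4 more weight, also made all 41 higher (medians 0.46 and 0.55), and leaving out control oligo 2 or 3, which gives control oligo 1 more weight, made 27 and 30 of the 41 lower (medians -0.12 and -0.13). No gene of the 41 passed in any of these fits. The sign of the difference between the stroke groups thus followed the presence and weight of control oligo 1 and knockdown 4.

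**Figure D3:**
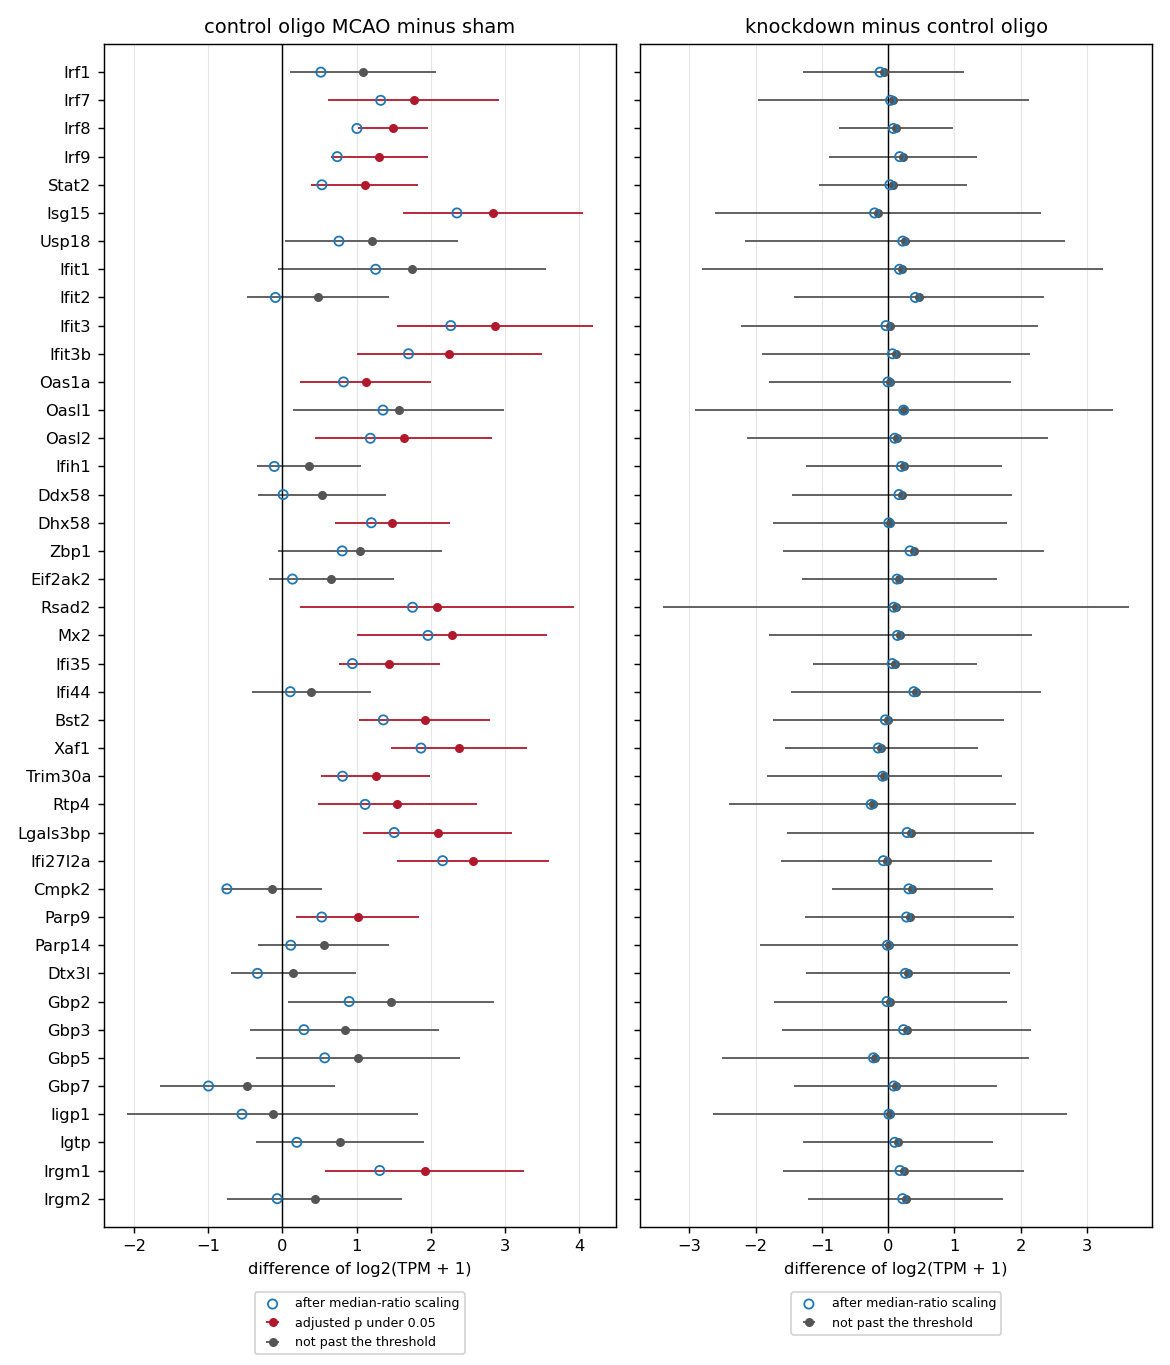
Difference of log2(TPM + 1) for the 41 genes kept, control oligo MCAO minus sham (left) and knockdown minus control oligo (right). Filled points are the estimates with 95% confidence intervals, red where the adjusted p is under 0.05, and open circles are the values after median-ratio scaling. In the left panel 21 genes are red, and in the right panel every interval spans 0.

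Among the transcription factors, 4 of 5 (Irf7, Irf8, Irf9 and Stat2) rose in both comparisons with sham, where 52.6% of all genes rose in control oligo and 52.7% in knockdown. After scaling Irf8 and Irf9 rose in control oligo and Irf8 in knockdown, where 26.1% and 22.7% of all genes did. The same shares of all genes apply to the counts of the other roles, which hold few genes each. Irf8, a factor of microglia and other myeloid cells, stood at 2.02, 1.99 and 1.44 TPM in sham, 8.76, 6.77 and 5.51 in control oligo and 6.36, 5.12 and 13.2 in knockdown libraries. Every MCAO library lay above every sham library, and the log2 change was 1.49 ± 0.20 (SE) in control oligo and 1.62 ± 0.31 in knockdown (adjusted p = 0.00035 and 0.00264). Irf9, the DNA-binding part of ISGF3, stood at 4.79, 4.39 and 3.32 TPM in sham, 17.7, 12.1 and 7.38 in control oligo and 11.7, 8.49 and 26.3 in knockdown libraries, again without overlap. Stat2, its partner, stood at 4.64, 6.68 and 3.52 TPM in sham, 19.01, 9.48 and 8.39 in control oligo and 9.103, 8.26 and 23.6 in knockdown libraries. Its log2 change was 1.11 in control oligo, and 0.53 after scaling, which did not pass. Irf7, which amplifies interferon production, stood at 1.44, 2.93 and 0.658 TPM in sham, 18.8, 4.69 and 4.63 in control oligo and 5.11, 2.98 and 29.6 in knockdown libraries. Knockdown 3 was the lowest stroke library for Irf7 and hardly exceeded sham 2. Irf1, a factor induced by interferon-γ, had log2 changes of 1.09 and 1.02 that did not pass (adjusted p = 0.0512 and 0.0507). Irf9 shares 123 exonic bases with Rnf31 on the same strand, so that strand cannot tell their reads apart there. Irf7 shares 45 with Phrf1 on the opposite strand, and without a strand option the reads of that pair cannot be told apart there either.

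Isg15, a ubiquitin-like protein that is attached to other proteins, had the second-largest log2 change of the 41 in control oligo. It stood at 2.39, 1.67 and 1.15 TPM in sham, 41.4, 6.63 and 20.9 in control oligo and 8.302, 6.02 and 77.6 in knockdown libraries. The lowest stroke library was above the highest sham library. The log2 change was 2.84 ± 0.53 in control oligo and 2.68 ± 0.81 in knockdown (adjusted p = 0.00177 and 0.0201), and after scaling it passed in control oligo only, by limma. In sham these levels rest on 2166 to 4263 aligned bases, against 149217 in knockdown 4. Usp18, the protease that removes Isg15 and dampens the receptor, had log2 changes of 1.20 and 1.46 that did not pass, although its libraries did not overlap with sham in either comparison. The 4 stroke libraries other than control oligo 1 and knockdown 4 had 2 to 2.6 TPM of Usp18, and sham had 1.18 to 1.67.

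The Ifit genes, whose proteins bind RNA with foreign 5′ ends, are neighbours on chromosome 19 in the order Ifit2, Ifit3, Ifit3b and Ifit1, with gaps of 7.1, 19.2 and 27.5 kb. Ifit3 and Ifit3b rose in both comparisons with sham, before and after scaling. Ifit3 (chr19:34583531-34588731, plus strand) had the highest mean TPM of the 42 genes and stood at 5.597, 7.63 and 3.95 TPM in sham, 141, 24.4 and 29.3 in control oligo and 22.6, 27.4 and 169 in knockdown libraries. Ifit3b stood at 3.48, 3.36 and 2.57 TPM in sham, 55.2, 9.98 and 11.2 in control oligo and 12.3, 10.8 and 59.9 in knockdown libraries. All 6 stroke libraries lay above all sham libraries for both genes, with log2 changes of 2.87 ± 0.58 and 2.25 ± 0.55 in control oligo (adjusted p = 0.00256 and 0.00651) and 2.89 ± 0.68 and 2.37 ± 0.57 in knockdown (adjusted p = 0.00678 and 0.0072). Their near-identity means that reads could be split between them. Neither of the outer genes of the cluster passed. Ifit1, chosen here after its values were seen, stood at 2.84, 3.12 and 1.04 TPM in sham, 46.8, 4.32 and 3.802 in control oligo and 4.02, 4.84 and 64.4 in knockdown libraries, so that all 6 stroke libraries lay above sham, as for Ifit3 and Ifit3b. Its log2 changes were 1.75 in control oligo and 1.96 in knockdown (adjusted p = 0.0799 and 0.087), and their difference from those of Ifit3 was not tested. Ifit2 overlapped with sham, at 5.26, 6.24 and 5.16 TPM in sham, 19.1, 5.304 and 5.04 in control oligo and 6.9, 5.52 and 37.9 in knockdown libraries. Its log2 change in control oligo turned from 0.48 to -0.09 on scaling, and to -0.65 on scaling without control oligo 1.

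The synthetases and RNA sensors were mostly at low levels. Oasl2, an oligoadenylate synthetase-like protein, stood at 1.95, 2.15 and 0.722 TPM in sham, 18.9, 3.68 and 4.12 in control oligo and 3.19, 3.44 and 33.4 in knockdown libraries. All stroke libraries exceeded sham, and the change passed in control oligo (log2 1.63 ± 0.52, adjusted p = 0.0228) but not in knockdown (adjusted p = 0.0698). Oas1a, which makes the oligoadenylates that activate RNase L, stood at 0.641, 0.866 and 0.279 TPM in sham, 5.39, 0.976 and 2.196 in control oligo and 0.832, 1.09 and 10.01 in knockdown libraries, with knockdown 2 inside the sham range. It rose in control oligo (log2 1.12 ± 0.39, adjusted p = 0.0302) and not after scaling or without control oligo 1. Dhx58, a regulator of the RNA sensors Ddx58 and Ifih1, stood at 0.369, 0.588 and 0.218 TPM in sham, 5.98, 1.99 and 1.74 in control oligo and 1.41, 1.04 and 11.4 in knockdown libraries, with no overlap between sham and either stroke group. It rose in control oligo (log2 1.48 ± 0.34, adjusted p = 0.00492), also after scaling, and had log2 1.51 in knockdown (adjusted p = 0.0625). The other 5 genes of this role (Oasl1, Ifih1, Ddx58, Eif2ak2 and Zbp1) did not pass in either comparison. Ddx58 (RIG-I), Ifih1 and the RNA-activated kinase Eif2ak2 had control oligo log2 changes of 0.53, 0.36 and 0.66, near or below the 0.56 of all genes. None of the 8 rose in knockdown with all 3 libraries in the fit, whereas Oasl2 and Dhx58 did without knockdown 4.

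Of the 11 antiviral effectors tested, 9 rose in control oligo (81.8%, where 52.6% of all genes rose), and 6 of them also after scaling (54.5%, against 26.1%). In knockdown 6 rose (54.5%, against 52.7%), and 3 of them also after scaling (27.3%, against 22.7%), shares near those of all genes. Xaf1, an interferon-induced antagonist of apoptosis inhibitors, stood at 1.2, 2.95 and 2.42 TPM in sham, 30.2, 11.4 and 9.93 in control oligo and 9.56, 8.48 and 33.2 in knockdown libraries. Ifi27l2a, a small membrane protein, stood at 0.703, 1.91 and 0.516 TPM in sham, 23.2, 5.92 and 8.33 in control oligo and 6.34, 6.43 and 26.3 in knockdown libraries. Mx2 stood at 0.355, 0.22 and 0.723 TPM in sham, 17.7, 5.01 and 1.97 in control oligo and 4.31, 3.405 and 19.8 in knockdown libraries. These 3 had no overlap with sham in either stroke group, with log2 changes of 2.38 ± 0.40, 2.57 ± 0.45 and 2.29 ± 0.56 in control oligo (adjusted p = 0.000987, 0.00125 and 0.00677), and each passed after scaling in both comparisons. Mx2 is annotated as a polymorphic pseudogene in GENCODE M21, and Mx genes of common laboratory strains are known to be defective. Bst2 (tetherin, which holds budding virus at the membrane) stood at 4.696, 3.47 and 2.59 TPM in sham, 32.2, 10.6 and 11.8 in control oligo and 8.51, 9.399 and 49.6 in knockdown libraries. Lgals3bp, a secreted glycoprotein, stood at 6.33, 6.37 and 3.15 TPM in sham, 54.1, 17.7 and 15.9 in control oligo and 13.9, 22.7 and 98.6 in knockdown libraries. Its transcript of highest mean TPM held 27.0, 24.1 and 20.4% of its TPM in sham 1, sham 2 and knockdown 3, and at least 90.8% elsewhere. By aligned bases knockdown 3 (61481) lay below knockdown 2 (79088), the reverse of their order in TPM. Ifi35 stood at 2.25, 2.65 and 1.47 TPM in sham, 12.2, 6.12 and 5.31 in control oligo and 5.03, 5.43 and 18.1 in knockdown libraries. All 3 were above sham in every stroke library and rose in both comparisons, after scaling in control oligo only.

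Rsad2, next to the divergent gene Cmpk2 on chromosome 12 at a gap of 12.8 kb, stood at 0.817, 1.22 and 0.186 TPM in sham, 31.98, 1.55 and 3.32 in control oligo and 1.95, 1.53 and 61.8 in knockdown libraries. The stroke libraries other than control oligo 1 and knockdown 4 had 1.53 to 3.32 TPM, above the 1.22 of sham 2. The change passed in control oligo (log2 2.08 ± 0.81, adjusted p = 0.0482), where it lost the threshold on scaling, and not in knockdown (adjusted p = 0.112). Rtp4, a chaperone of receptor transport, stood at 1.695, 1.48 and 0.811 TPM in sham, 14.9, 3.59 and 3.17 in control oligo and 2.35, 1.59 and 20.6 in knockdown libraries, with knockdown 3 inside the sham range. Trim30a, a ubiquitin ligase family member, stood at 1.56, 2.35 and 0.837 TPM in sham, 8.33, 3.49 and 4.15 in control oligo and 2.49, 1.85 and 18.3 in knockdown libraries, and knockdown 3 was again inside the sham range. Both rose in control oligo, with log2 changes of 1.55 and 1.26, and neither rose in knockdown or after scaling. Cmpk2, a nucleotide kinase that is transcribed away from Rsad2, differed less between libraries. It stood at 9.69 to 14.2 TPM in sham, 7.52 to 17.9 in control oligo and 8.16 to 29.5 in knockdown libraries, and its log2 change in control oligo was -0.13. Ifi44 did not pass either (log2 0.39). Mx1 stood at 0.157, 0.205 and 0 TPM in sham, 9.12, 0.513 and 0.788 in control oligo and 0.638, 0.208 and 16.6 in knockdown libraries, above 1 TPM only in control oligo 1 and knockdown 4.

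In the Parp9 complex, whose members are ADP-ribosyltransferases and the ubiquitin ligase Dtx3l, Parp9 stood at 2.34, 3.11 and 1.22 TPM in sham, 9.93, 3.38 and 4.26 in control oligo and 3.46, 4.26 and 20.1 in knockdown libraries. It rose in control oligo (log2 1.01 ± 0.36, adjusted p = 0.0358) and not after scaling, without control oligo 1 or in knockdown. Parp14 and Dtx3l had log2 changes of 0.56 and 0.15 in control oligo, at or below the median of all genes. Dtx3l and Parp9 overlap by 458 exonic bases on opposite strands, so the values of this pair are uncertain.

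None of the 4 guanylate binding proteins, GTPases that attack pathogen vacuoles and are strongly induced by interferon-γ, rose in any of the 3 comparisons with all libraries in the fit. Gbp2, the highest of them, stood at 7.96, 14.5 and 1.56 TPM in sham, 29.8, 11.2 and 18.9 in control oligo and 10.6, 9.71 and 63.4 in knockdown libraries. Sham 2 lay above 3 of the 6 stroke libraries and sham 3 far below all of them, and the log2 change in control oligo was 1.47 ± 0.61 (adjusted p = 0.0606). Gbp3 and Gbp5 overlapped with sham in the same way, with log2 changes of 0.84 and 1.02. Gbp7 was lower in the stroke groups on average, at log2 -0.47 and -0.36, and fell past the threshold in the scaled fits without control oligo 1 or knockdown 4. The 4 genes lie together on chromosome 3 with gaps of 8.0 to 47.4 kb.

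Of the 4 immunity-related GTPases, only Irgm1 rose. Irgm1 (chr11:48861968-48871683, minus strand), a regulator that guards host membranes from the other GTPases, stood at 8.72, 10.9 and 4.21 TPM in sham, 88.5, 20.2 and 16.1 in control oligo and 21.2, 26.1 and 86.5 in knockdown libraries. Each stroke library was above each sham library, with log2 changes of 1.92 ± 0.59 in control oligo and 2.15 ± 0.52 in knockdown (adjusted p = 0.0186 and 0.0079), and the threshold was lost on scaling (log2 1.31 and 1.49). Iigp1, Igtp and Irgm2 overlapped with sham and had log2 changes of -0.13, 0.78 and 0.44 in control oligo. For Iigp1 sham 2, at 10.9 TPM, was above 5 of the 6 stroke libraries. Igtp and Irgm2 share 162 exonic bases on the same strand, which makes their values uncertain.

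**Figure D4:**
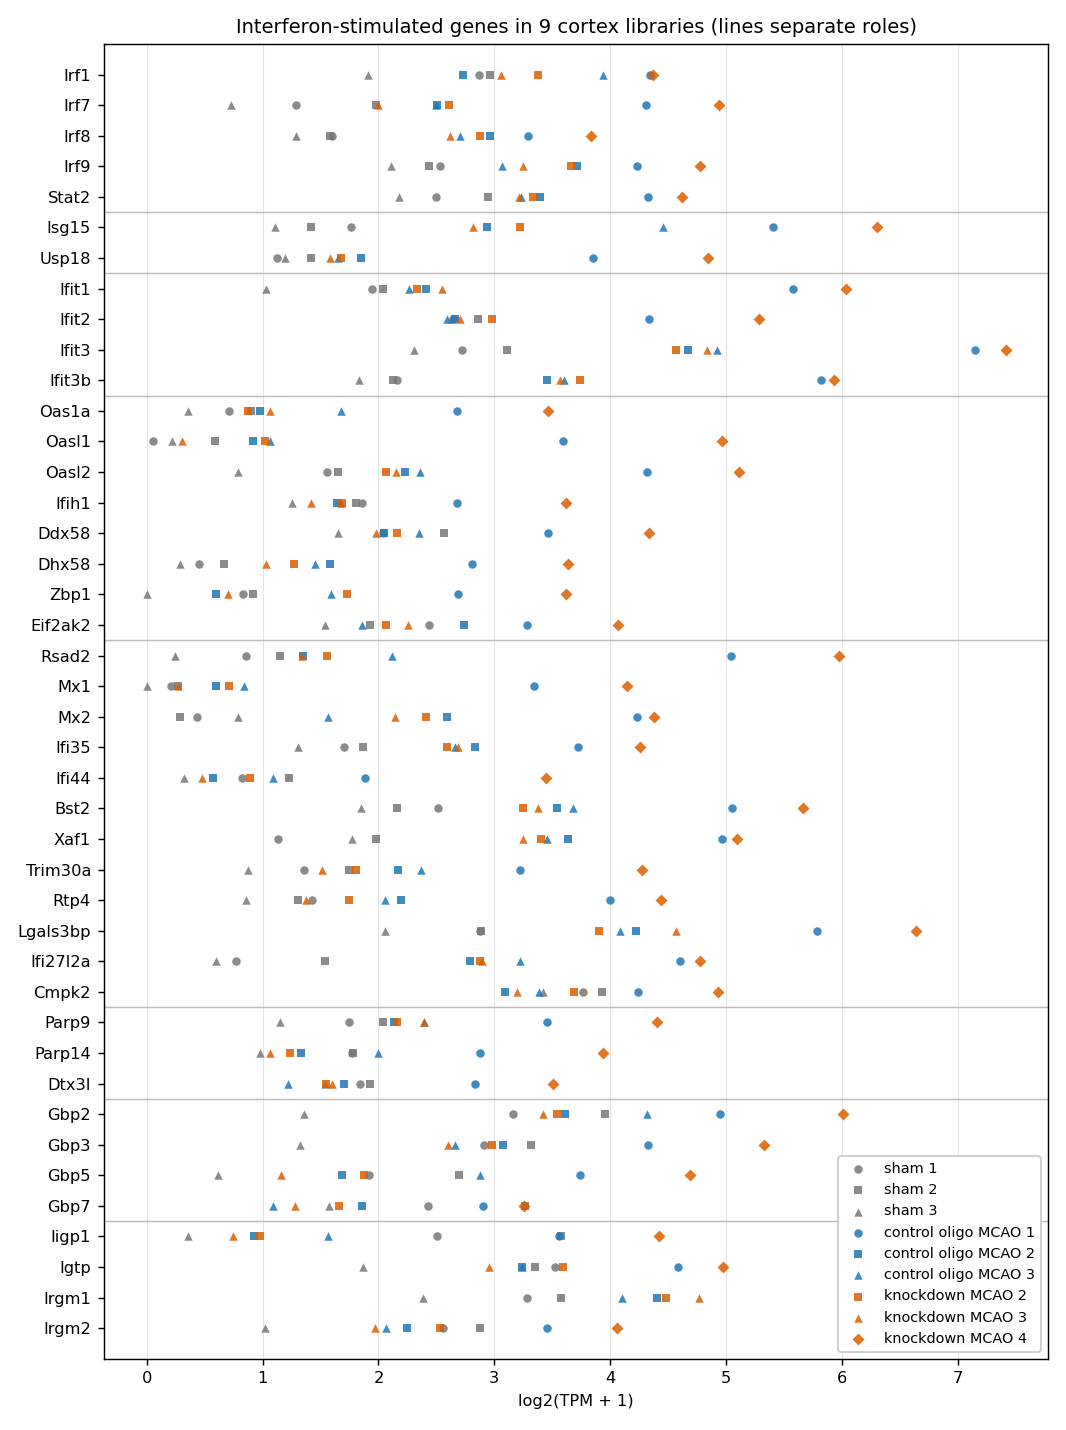
log2(TPM + 1) of the 42 genes (rows, grouped by role) in each of the 9 libraries, coloured by group and shaped by replicate number. Knockdown 4 (orange diamonds) and control oligo 1 (blue circles) are the highest of their groups in every row, and grey sham points overlap with the other stroke libraries for the guanylate binding proteins but not for Ifit3, Xaf1 or Ifi27l2a.

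For the genes upstream in the pathway, the values to set beside the counts are those of all genes, in which control oligo 1 was the highest of its group in 22.8% with a median excess of 1.19-fold and knockdown 4 in 34.0% with 1.17-fold. Of the receptor subunits, 5 were tested, and 3 of them rose in control oligo (52.6% of all genes did), 0 after scaling, when 2 fell (26.1% of all genes rose and 29.2% fell). The shared subunit Il10rb and the interferon-γ receptor chain Ifngr1 had log2 changes of 0.79 and 0.90. In the knockdown group 4 rose against sham (52.7% of all genes did), and none after scaling. For Ifnar2 and Ifngr2 every knockdown library exceeded every control oligo library, where 3.60% of all genes did, and neither passed the test of that comparison. Control oligo 1 was the highest of its group for 3 of these 5 genes and knockdown 4 for 4, with median excesses over the next library of 1.19-fold and 1.76-fold. Interferons themselves are not analysed here, apart from Ifnk, Ifnl2 and Ifnl3, which were below the filter.

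Among signalling genes and regulators, 7 of 14 rose in control oligo and 10 in knockdown against sham, and 3 and 2 after scaling, when 2 and 1 fell. These are 50% and 71.4% of the list where 52.6% and 52.7% of all genes rose, and 21.4% and 14.3% after scaling where 26.1% and 22.7% did. Control oligo 1 was the highest of its group for 8 of these 14 genes and knockdown 4 for 9, with median excesses of 1.18-fold and 1.26-fold. Socs3, a feedback inhibitor of cytokine receptors, stood at 1.18, 2.17 and 1.95 TPM in sham, 31.8, 9.93 and 29.6 in control oligo and 10.2, 6.84 and 68.2 in knockdown libraries, and its log2 change of 3.02 ± 0.40 (adjusted p = 0.000287) held after scaling at 2.53. Stat3, a factor of interleukin-6 type signalling, had a log2 change of 1.59.

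Of the genes that sense nucleic acid upstream of interferon, 11 of 16 rose in control oligo and 12 in knockdown, and 5 and 4 after scaling, when 2 and 1 fell. These are 68.8% and 75% of the list, against 52.6% and 52.7% of all genes, and 31.2% and 25% after scaling, against 26.1% and 22.7%. Control oligo 1 was the highest for 11 of the 16 and knockdown 4 for 12, with median excesses of 1.33-fold and 2.40-fold. Myd88, the adaptor of most Toll-like receptors, had log2 2.10 ± 0.21 (adjusted p = 6.81e-05), and 1.56 after scaling. Ticam1, the adaptor of Tlr3, had log2 1.41 ± 0.17, and the stroke libraries lay between 4.53 and 5.79 TPM against 1.19 to 1.46 in sham, with no excess in control oligo 1 or knockdown 4. Unc93b1, which carries Toll-like receptors to endosomes, and the adaptor Tmem173 (STING) had log2 1.3 and 1.23.

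A further 45 interferon-stimulated genes outside the 42 were tested. In control oligo 24 rose, 11 after scaling when 4 fell, and in knockdown 18 rose, 8 after scaling when 1 fell. The shares that rose were 53.3% in control oligo and 40% in knockdown, against 52.6% and 52.7% of all genes, and 24.4% and 17.8% after scaling, against 26.1% and 22.7%, so that they were near or below those of all genes. Those with the smallest p in control oligo were Ifi30 (a lysosomal reductase), the virus entry restriction factors Ifitm1 and Ifitm2, and the exonuclease Isg20, with log2 changes of 2.89, 3.40, 3.09 and 2.27. Ifitm1 stood at 1.48, 2.18 and 1.16 TPM in sham, 40.4, 14.9 and 29.7 in control oligo and 17.9, 19.95 and 124 in knockdown libraries, where control oligo 3 came close to control oligo 1. Cxcl10, the chemokine most used as a readout of interferon and named here after its values were seen, stood at 0.0771, 1.09 and 0.0968 TPM in sham, 88.1, 4.87 and 8.64 in control oligo and 4.16, 2.14 and 127 in knockdown libraries. Control oligo 1 was the highest of its group in 40 of these 45 genes and knockdown 4 in 43, with median excesses of 1.66-fold and 5.79-fold. None of the receptor, signalling, sensing and further interferon-stimulated genes passed between knockdown and control oligo. The smallest unadjusted p by limma was 0.0198, for Trim14, the only one of these 80 genes with an unadjusted p under 0.05. Trim14 stood at 0.279, 0.192 and 0.02796 TPM in sham, 0.648, 0 and 0 in control oligo and 1.03, 1.005 and 3.91 in knockdown libraries.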

How the data were processed

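Per the submitters' processing notes, the authors aligned reads to GRCm38/mm10 with HISAT2 2.0 and used StringTie 1.3. Per the file headers, StringTie 1.3.4d was run with -e and -B on a merged annotation with no strand option, so values of genes overlapping on opposite strands are uncertain. The deposited tables give a coverage, an FPKM and a TPM per transcript. Per the labels, MCAO libraries were TruSeq stranded poly(A) libraries sequenced from both ends, whereas for sham libraries these details were not given in the sources used here.

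Gene TPM is the sum of a gene's transcripts. A gene was kept (17080 were) where 3 or more of the 9 libraries reached a TPM of 1. limma 3.58.1 (limma-trend, R 4.3.3) was run on log2(TPM + 1), on the 6 libraries of each comparison, two-sided, with Benjamini-Hochberg adjustment over all genes kept. Median-ratio scaling and the other settings were alternatives, and leaving out control oligo 1 or knockdown 4 together with scaling, or both at once, was chosen after seeing the data. Aligned bases come from coverage times length, and read counts were not used. No pair of libraries held identical values. Tables and plots used Python 3.11.15, pandas 2.3.3, numpy 2.4.6 and matplotlib 3.10.9. The fit was tested on simulated data.

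Levels in every library are printed for members past the threshold in any comparison and for the member with the highest mean of each role, and other genes named with all values were chosen after their values were seen. Companion genes are those with the smallest p. The members and lists were chosen with earlier results of these data known. P-values measure the spread between 3 libraries per group, which the labels describe as cohorts of mice.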

Additional observations from a re-analysis of the deposited data

How the results depend on the processing

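Among the 41 genes, the 21 that passed in control oligo against sham became 12 with median-ratio scaling, 12 with FPKM and 13 when all 9 libraries shared a fit. With nuclear protein-coding TPM they became 11 of 40 tested (10 higher, 1 lower). Leaving out each library in turn gave 13 to 28, the lowest without sham 3. The 14 that passed in knockdown against sham became 6 with scaling, 3 with nuclear protein-coding TPM and 6 with FPKM, and 8 to 18 with each library left out, the lowest again without sham 3. For FPKM, the shared fit and most of the left-out libraries the share of all genes called against sham is not given here. Between knockdown and control oligo the count for these genes was 0 in each alternative run. Nuclear protein-coding TPM left out Mx2, annotated as a polymorphic pseudogene, which had passed in both comparisons with sham, and so tested 40 of the 41. Over all genes it tested 13834 in place of 17080. It called 7191 (3059 higher, 4132 lower) in place of 11168 (8990 higher, 2178 lower) in control oligo against sham, and 6536 (2546 higher, 3990 lower) in place of 11150 (9007 higher, 2143 lower) in knockdown against sham. Between knockdown and control oligo the 2 genes became 0 with nuclear protein-coding TPM, 4 with all 9 libraries, 1 to 3 with each library left out, and 1 without control oligo 1 and knockdown 4. After scaling and leaving out control oligo 1, Ifit2 and Dtx3l reversed against sham (log2 -0.65 and -0.78). After scaling and leaving out knockdown 4, Ifit2, Ifih1, Parp14, Dtx3l and Cmpk2 did (-0.51, -0.60, -0.81, -0.72 and -0.96). The cause was not tested.

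Replicate numbers are not stated to pair animals, and same-numbered deviations correlated at -0.03, -0.07 and 0.12 (control oligo with sham), 0.23 and 0.07 (knockdown with control oligo) and -0.06 and 0.07 (knockdown with sham). With the replicate number as a block, 27 of the 41 genes passed in control oligo against sham, all of them higher. Of the 17080 genes, 9176 rose and 2290 fell in that fit. The block fits with the knockdown group could use only replicates 2 and 3, so knockdown 4 and replicate 1 of the other group were left out. Against sham 19 of the 41 genes then passed, all higher, where 9216 of all genes rose and 2015 fell. Between the stroke groups 0 of the 41 genes and 0 of all genes passed.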
